A study of Mus musculus with 9 samples.

Results

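Chemokines and their receptors were followed through 9 RNA-Seq libraries of the mouse iris. The genes were all those whose symbol begins with Ccl, Cxcl, Ccr, Cxcr or Ackr and a digit, with *Xcl1*, *Xcr1*, *Cx3cl1*, *Cx3cr1*, *Pf4*, *Ppbp* and *Ccrl2* added by name. They came to 63 of the 18349 genes listed, and comprised 39 ligands, 19 signaling receptors and 5 atypical receptors. Between 50 and 60 of them had counts in a given library. Of the 63, 50 passed the filter on low counts and were tested. The other 13 were *Ccl1*, *Ccl20*, *Ccl21b*, *Ccl21c*, *Ccl21d*, *Ccl24*, *Ccr1l1*, *Ccr4*, *Ccr6*, *Ccr8*, *Cxcl15*, *Cxcr5* and *Xcl1*. None of these 13 had more than 17 counts in a library, except *Ccl21c* and *Ccl21d* with 210 in injured *VEGFR3fl/fl* replicate 1.

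The study asked how lymphatic vessels that grow into the iris after corneal alkali injury (CAI) affect inflammation of the eye. Sham *VEGFR3fl/fl* mice had PBS placed on the cornea, and injured *VEGFR3fl/fl* and injured *VEGFR3iLECko* mice had filter paper soaked in sodium hydroxide (1 M, 0.5 μL) placed on it for 60 seconds, at 6 weeks of age. All 3 groups carried floxed *Vegfr3* alleles on a C57BL/6J background, and mice of both sexes were used. The *VEGFR3iLECko* mice also carried *Prox1-CreERT2*, a Cre recombinase that tamoxifen activates in cells with an active *Prox1* promoter, chiefly lymphatic endothelial cells (LECs), although the promoter is not limited to that cell type. Tamoxifen was injected at 80 mg/kg on days 13 to 17 after CAI, into littermate *VEGFR3fl/fl* controls as well. Irises were collected at week 10, and each of the 3 libraries per group pooled 3 irises, so that the spread between libraries is the spread between pools.

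The libraries held 16617187 to 18306359 counts. Levels are given as CPM, counts scaled to the size of the library, after TMM normalization, which scales each library so that most genes do not differ. Markers of iris pigment cells summed to 27233 to 29080 CPM in Sham libraries, and the ciliary body markers to at most 3.64 CPM in any library. *Flt4*, the mouse gene for VEGFR3, had 15.6, 13.4 and 14.9 CPM in Sham, 16.8, 20.7 and 23.0 CPM in injured *VEGFR3fl/fl* and 27.9, 20.9 and 27.4 CPM in the libraries labelled *VEGFR3iLECko*. It was therefore not lower in those labelled as depleted. These counts cover the gene as a whole in all iris cells and do not check a deletion in LECs, so those libraries are named by their label. Y-linked genes summed to 51.1, 82.3 and 167 CPM in Sham, 151, 136 and 0.804 CPM in injured *VEGFR3fl/fl* and 1.11, 0.736 and 0.806 CPM in the labelled *VEGFR3iLECko* libraries. All 3 of the latter and injured *VEGFR3fl/fl* replicate 3 were thus near 0, so that within the injured groups the sex of the pooled mice and the label differ only through that replicate. A covariate for Y-linked expression, used below as an alternative, takes its slope largely from that replicate. Values with this covariate therefore lean on that library and do not separate sex from label.

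Chemokines are small secreted proteins that direct the movement of leukocytes. They bind G protein-coupled receptors on the target cell, and most receptors answer to several ligands. The ligands of CXCR2 attract neutrophils, those of CXCR3 attract activated T cells and natural killer cells, those of CCR2 attract monocytes, and CCL21 and CCL19 guide dendritic cells and T cells toward and within lymphoid tissue through CCR7. Atypical receptors bind chemokines without classical G protein signaling and clear or transport them.

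Among the genes that the results turn on, *Cxcl1*, *Cxcl2*, *Cxcl3* and *Cxcl5* lie in 1 cluster on chromosome 5 (chr5:90759298-90905938, mm10) of 7 chemokine genes, in the order *Cxcl5*, *Ppbp*, *Pf4*, *Cxcl3*, *Cxcl15*, *Cxcl1* and *Cxcl2*. Promoter sequences were taken from RefSeq on GRCm38.p6, the assembly of the mm10 build, as windows from 250 bases before to 50 bases after each annotated start. A window was found for 50 of the 63 genes. Stretches of 4 of them are shown because their genes had fold changes of opposite sign between the injured groups. None of these 4 differences passed the thresholds given below. Capitals mark matches to the κB consensus, the site bound by NF-κB. The first 3 are on the plus strand, at chr5:90891134-90891223, chr5:90903762-90903851 and chr5:90785988-90786077.
Cxcl1: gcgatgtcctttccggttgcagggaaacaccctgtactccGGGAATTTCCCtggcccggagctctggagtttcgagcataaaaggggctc
Cxcl2: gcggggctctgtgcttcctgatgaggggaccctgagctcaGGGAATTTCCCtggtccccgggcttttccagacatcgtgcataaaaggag
Cxcl3: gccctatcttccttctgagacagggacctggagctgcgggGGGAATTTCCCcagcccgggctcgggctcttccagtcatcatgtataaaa

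These 3 promoters held the same 11 bases, GGGAATTTCCC, which begin 71, 97 and 73 bases before the annotated starts of *Cxcl1*, *Cxcl2* and *Cxcl3*. The same 11 bases, read from the *Cxcl1* window and searched on both strands, stood in 14 of 32851 promoter windows (0.0426%), these 3 included. Because the sequence was chosen from 1 of these genes, this share does not measure enrichment. The κB consensus at large was found in 13 of the 50 windowed genes (26.0%) and in 8.46% of all windows. These genes had 59 windows, and a gene counted with a match in any of its own. The shares of genes and of windows are therefore in unlike units. In the minus-strand promoter of *Cxcl10* (chr5:92348973-92349112), capitals mark the core of the interferon-stimulated response element (ISRE), searched as GAAA, any 2 bases and GAAA again, and then 2 κB matches.
Cxcl10: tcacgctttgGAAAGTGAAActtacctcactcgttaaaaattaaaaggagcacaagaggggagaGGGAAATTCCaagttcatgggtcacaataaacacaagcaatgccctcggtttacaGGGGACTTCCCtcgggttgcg

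The ISRE core began 213 bases before the start, and the κB matches began 159 and 104 bases before it. This core was present in 3 of the 50 windowed genes, *Cxcl10*, *Ccl19* and *Cxcl14*, and in 3.44% of all windows. Between the injured groups *Ccl19* had a negative and *Cxcl14* a positive fold change, and neither passed the thresholds. The interferon gamma-activated site (GAS), searched as TTCNNNGAA, was present in 4 of the 50 windowed genes and in 8.3% of all windows. For both motifs the members were again counted by gene and the background by window. These matches describe the letters of the windows and not binding.

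In Sham iris, few of these genes were abundant. *Cxcl12*, which retains CXCR4-bearing cells in tissues, made up 42.9% to 44.2% of the summed CPM of all 63 genes. Per length, as approximate TPM (counts per transcript length, scaled to a common total) from the longest transcript of each gene, *Cxcl12* at 125, the atypical CXCL12 receptor gene *Ackr3* at 103, the skin-type chemokine gene *Ccl27b* at 68.2, the membrane-bound chemokine gene *Cx3cl1* at 61.8 and the platelet factor gene *Pf4* at 61.0 stood highest. With the median transcript length instead, the same 5 genes led and *Cx3cl1* came first. In injured *VEGFR3fl/fl* iris the highest approximate TPM were those of *Ccl6* (1242), *Ccl8* (328), *Pf4* (212), *Cxcr4* (179), *Cxcl12* (162), *Cxcl14* (116), *Cxcl16* (104), *Ccl21a* (79.4), *Cxcl5* (77.4) and *Cx3cl1* (67.7). The *Ccl21a* value came almost wholly from replicate 1. In the labelled *VEGFR3iLECko* libraries, *Ccl6* (1543) was followed by *Cxcl5* (338). With the median length *Ccl6* still led both injured groups, but *Cx3cl1* came next (213 and 231), and *Ccl21a* and *Cxcl5* left the first 10 in injured *VEGFR3fl/fl*. The 63 genes summed to 554 to 569 CPM in Sham, 1834 to 3059 CPM in injured *VEGFR3fl/fl* and 2282 to 2928 CPM in the labelled *VEGFR3iLECko* libraries, so no injured library of either genotype overlapped with Sham.

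**Figure D1:**
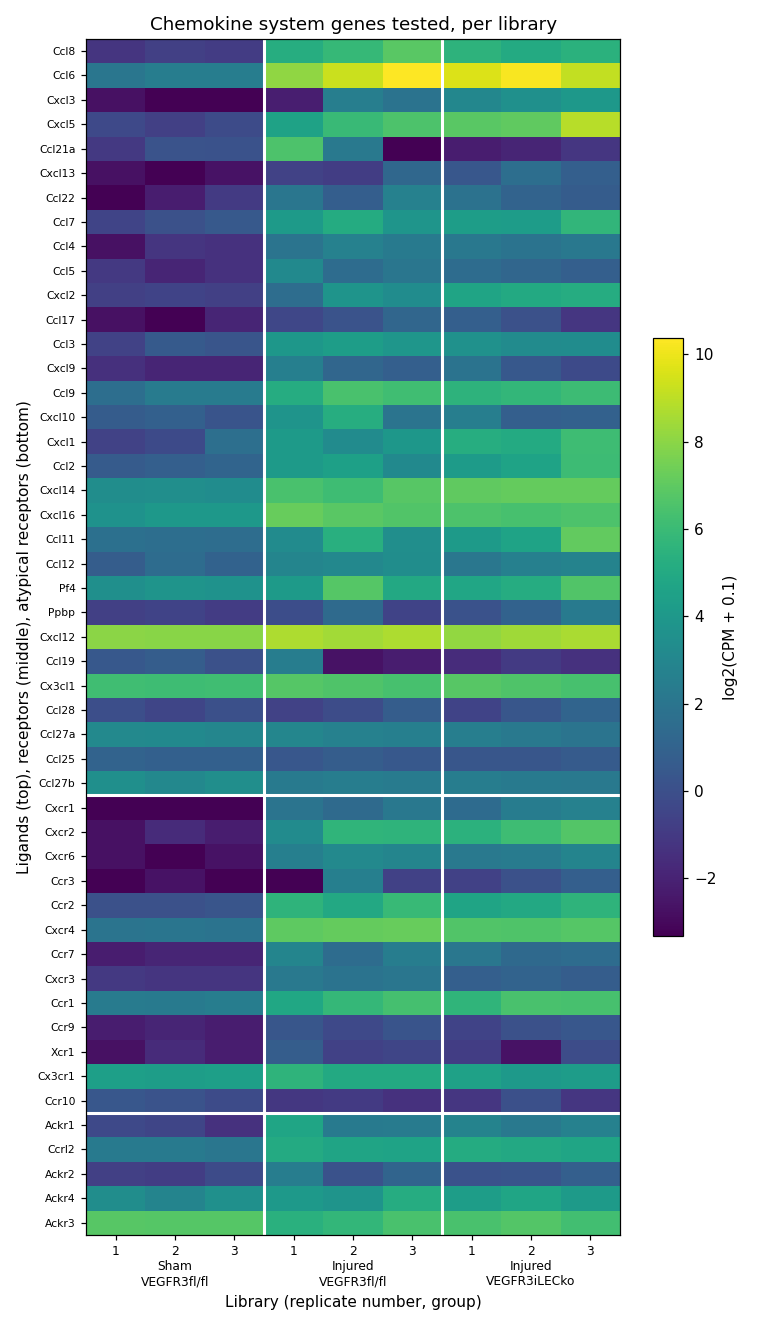
Heat map of log2(CPM + 0.1) for 49 of the 50 genes tested, with a library in each column and a gene in each row, ligands above receptors above atypical receptors, each sorted by fold change after injury. Most rows are dark in the 3 Sham libraries and bright in the 6 injured ones, while *Cxcl12* and *Cx3cl1* are bright in all 9.

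Genes were called higher or lower at an adjusted p under 0.05 in the quasi-likelihood F test of edgeR, adjusted by the Benjamini-Hochberg method across 15010 genes, and a change of more than 1.5-fold. After injury, 41 of the 50 genes rose, where 22.1% of all genes tested were called higher. *Ackr3*, *Ccl27b* and *Ccr10* fell, where 17.5% of all genes were called lower. The 6 genes not called were *Ccl19*, *Ccl25*, *Ccl27a*, *Ccl28*, *Cx3cl1* and *Ppbp*. The median log2 fold change was 3.57, against 0.01 over all genes, and remained 3.57 with *Cxcr1*, absent from Sham, at its bound. The injured libraries lay entirely above Sham for 41 genes (33.9% of all genes tested did) and entirely below for 5 (32.4% of all genes). By role, 24 of 31 tested ligands rose and 1 fell, 13 of 14 receptors rose and 1 fell, and 4 of 5 atypical receptors rose and 1 fell. The filter bears on these counts, because 16 genes had fewer than 10 counts in every Sham library and could pass it only through injured libraries, and all 16 were called higher. Of the 34 others, 25 rose and 3 fell. Some of these, such as *Ackr1* (13, 11 and 5 counts) and *Cxcl2* (9, 10 and 9 counts), reached 10 counts in only part of the Sham libraries. The filter can bear on such genes too, so the 34 are not free of it. In whole iris, more cells of a type and more RNA per cell cannot be told apart. Markers of pigment cells and smooth muscle were lower after injury (5 of 5 and 3 of 5 called lower), while those of macrophages (7 of 8), T cells (8 of 8), monocytes (4 of 4) and neutrophils (4 of 4 tested) were called higher.

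**Figure D2:**
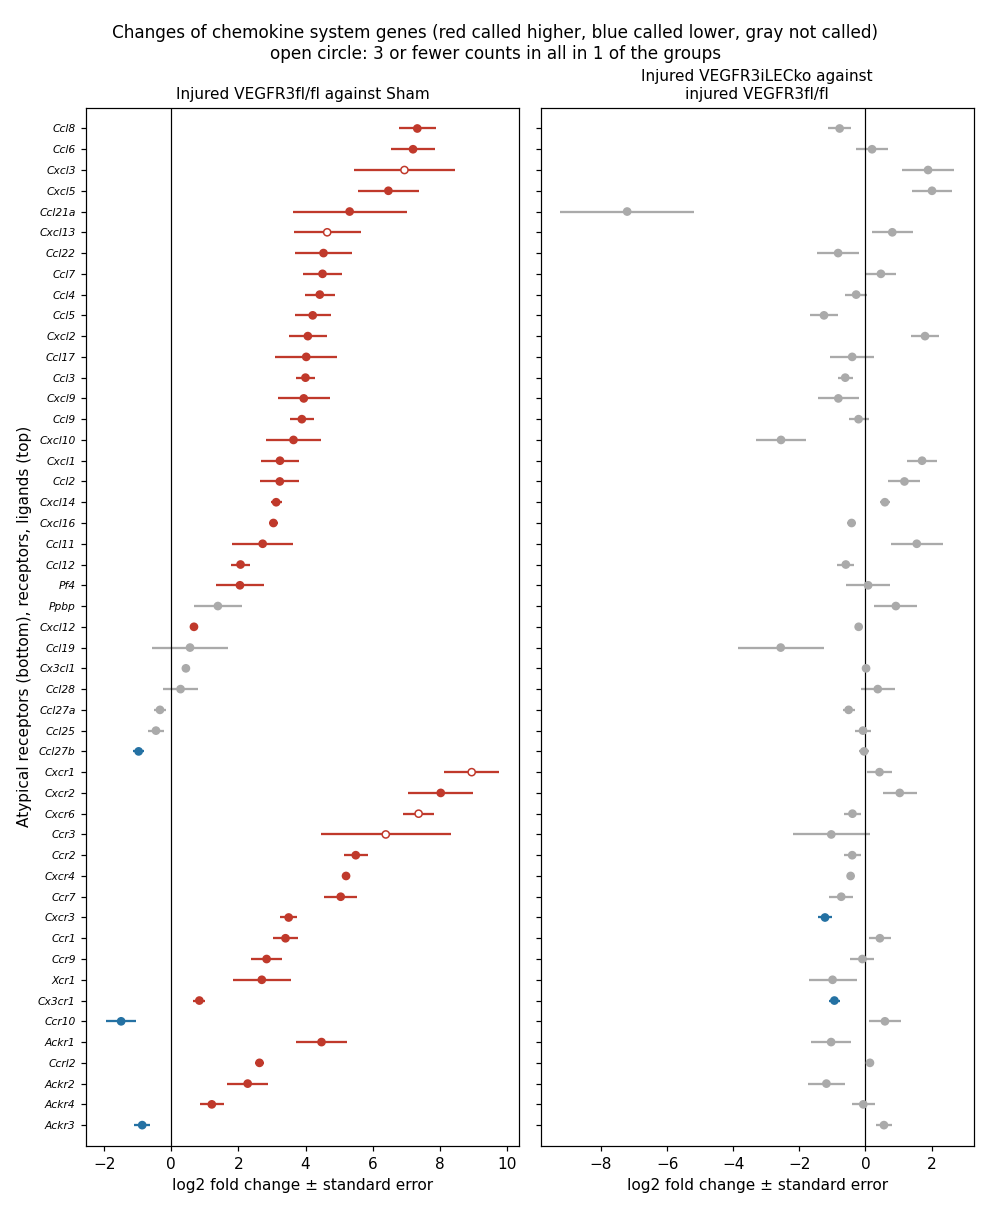
Log2 fold changes with standard errors for 49 of the 50 genes tested, after injury in the left panel and between the injured groups in the right panel. Points right of 0 are higher in the first group named, and open circles mark genes with 3 or fewer counts in all in 1 of the groups. On the left 40 points are red and 3 are blue, and on the right 2 points are blue, those of *Cxcr3* and *Cx3cr1*.

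Most genes of the neutrophil axis rose from low Sham levels. *Cxcr2*, the receptor gene that marks neutrophils, had 0.0554, 0.226 and 0.113 CPM in Sham and 9.77, 49.4 and 48.8 CPM in injured *VEGFR3fl/fl* libraries, a log2 fold change of 8.03 ± 0.97 (SE, n = 3; adjusted p = 9.51e-05). Its Sham values stand for 1, 4 and 2 counts, so the size of this fold is uncertain. *Cxcr1*, its close relative, had no count in Sham and 61, 44 and 76 counts after injury, so it was at least 21.1-fold higher against 3 counts per Sham library. Among the ligands, *Cxcl5* went from 0.720, 0.508 and 0.788 CPM to 23.8, 63.3 and 93.4 CPM (6.47 ± 0.91; adjusted p = 2.45e-04). All of these libraries lay above every Sham library, and injured replicate 1 was lowest for *Cxcr2* and *Cxcl5*. *Cxcl1* had 0.554, 0.734 and 3.15 CPM in Sham and 17.4, 9.71 and 14.98 CPM after injury (3.24 ± 0.56; adjusted p = 9.26e-04). *Cxcl2* had 0.498, 0.565 and 0.507 CPM in Sham and 2.85, 13.6 and 10.2 CPM after injury (4.07 ± 0.57; adjusted p = 2.42e-04). Both ligands rose in each injured library, with *Cxcl2* again lowest in replicate 1. *Cxcl3* had 1, 0 and 0 counts in Sham and 2, 98 and 64 counts after injury, a ratio of summed counts of 172 (95% counting interval 30.5 to 6841). *Ppbp*, a platelet ligand of CXCR2, had 0.849, 2.57 and 0.574 CPM after injury against 0.498, 0.565 and 0.450 CPM in Sham and was not called (adjusted p = 0.124). The summed neutrophil markers were 4.32, 4.23 and 5.52 CPM in Sham and 157, 411 and 493 CPM after injury, and their part in the levels of these genes was not tested.

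Genes of the monocyte axis rose together. *Ccr2*, the receptor of inflammatory monocytes, had 0.941, 0.960 and 1.13 CPM in Sham and 48.2, 30.4 and 59.1 CPM after injury (5.50 ± 0.36; adjusted p = 2.45e-06). *Ccl2*, its main ligand, went from 1.44, 1.69 and 2.03 CPM to 17.4, 22.4 and 8.96 CPM (3.23 ± 0.59; adjusted p = 0.00118). The other ligands, *Ccl7* (4.51 ± 0.59) and *Ccl12* (2.06 ± 0.28), also rose. Thus all 4 genes of this axis were called higher, and none of their injured libraries overlapped with Sham.

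The receptor gene *Ccr1* and the 6 ligand genes of its axis were called higher as well. *Ccl6*, a ligand made by myeloid cells, had 4.10, 5.53 and 5.52 CPM in Sham and 275, 629.6 and 1330.0 CPM after injury (7.20 ± 0.65; adjusted p = 1.63e-05). *Ccl8*, a ligand that in the mouse also acts on CCR8, had 0.332, 0.508 and 0.450 CPM in Sham and 36.8, 58.7 and 115 CPM after injury (7.33 ± 0.54; adjusted p = 4.87e-06). Injured replicate 3 was highest for both, and replicate 1 was lowest. *Ccr1*, a receptor of neutrophils and monocytes, had 5.15, 4.74 and 5.52 CPM in Sham and 28.8, 54.8 and 79.6 CPM after injury (3.40 ± 0.38; adjusted p = 6.47e-05). It rose with *Ccl3* (3.999 ± 0.28), *Ccl4* (4.43 ± 0.44), *Ccl5* (4.21 ± 0.54) and *Ccl9* (3.89 ± 0.36). The RefSeq spans of *Ccl3* and *Ccl4* overlap, and how shared reads were assigned is not given in the sources used here.

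Genes of T cell recruitment rose from low Sham levels. *Cxcr3*, the receptor of activated T cells, had 0.388, 0.339 and 0.338 CPM in Sham and 4.49, 3.69 and 4.08 CPM after injury (3.50 ± 0.25; adjusted p = 3.88e-06). Its interferon-induced ligand gene *Cxcl10* had 1.49, 1.75 and 1.07 CPM in Sham and 13.5, 36.9 and 3.79 CPM after injury (3.64 ± 0.81; adjusted p = 0.00389). *Cxcl9*, the other ligand listed, had 0.277, 0.169 and 0.169 CPM in Sham and 6.01, 2.16 and 1.66 CPM after injury (3.95 ± 0.78; adjusted p = 0.00197). The receptor was nearly even across the injured libraries, while *Cxcl10* was highest in replicate 2 and *Cxcl9* in replicate 1. *Cxcr6*, a receptor of resident T cells, had 1, 0 and 1 counts in Sham and 99, 146 and 131 counts after injury, a ratio of summed counts of 197 (95% counting interval 54.3 to 1636). *Cxcl16*, its membrane-bound ligand, had 12.7, 15.5 and 16.0 CPM in Sham and 145, 119 and 101 CPM after injury (3.04 ± 0.15; adjusted p = 4.03e-07). *Ccl17* (4.02 ± 0.92) and *Ccl22* (4.54 ± 0.84), ligands of CCR4, were called higher, whereas their receptor gene *Ccr4* had 3 counts in Sham and 13 after injury and was not tested.

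The CXCL12 axis split. *Cxcr4*, a receptor of many leukocytes, had 3.71, 3.90 and 3.60 CPM in Sham and 126, 142 and 147 CPM after injury (5.21 ± 0.10; adjusted p = 1.75e-08). *Cxcl12* had 252, 243 and 242 CPM in Sham and 412, 357 and 407 CPM after injury (0.68 ± 0.11; adjusted p = 7.96e-04). The scavenging receptor gene *Ackr3* moved the other way, from 114, 108 and 108 CPM in Sham to 40.8, 54.6 and 85.5 CPM after injury (-0.87 ± 0.23; adjusted p = 0.00978). Its injured libraries all lay below Sham, with replicate 3 nearest to it. *Cxcl12* was the only gene of these called after injury that missed the threshold when libraries were scaled by total counts alone, a scaling that moves the median of all genes by more than 0.1 on the log2 scale, from 0.01 to -0.16.

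The fractalkine pair changed less. *Cx3cr1*, the receptor of resident macrophages and of some monocytes, had 21.5, 19.8 and 20.9 CPM in Sham and 47.4, 32.5 and 31.3 CPM after injury (0.84 ± 0.18; adjusted p = 0.00271). *Cx3cl1*, its ligand, had 72.8, 68.8 and 72.8 CPM in Sham and 107, 97.6 and 85.4 CPM after injury. The groups of this ligand did not overlap, but its log2 fold change of 0.44 ± 0.11 (adjusted p = 0.00905) was under the fold threshold.

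In the CCR7 axis the receptor rose, and its ligands rested on 1 library. *Ccr7*, the receptor of migrating dendritic cells and naive T cells, had 0.111, 0.169 and 0.169 CPM in Sham and 7.34, 2.75 and 5.45 CPM after injury (5.05 ± 0.49; adjusted p = 2.58e-05). *Ccl21a*, the ligand made by lymphatic endothelium and lymph node stroma, had 7, 18 and 18 counts in Sham and 1522, 79 and 0 counts after injury. *Ccl19*, the second ligand, had 1.27, 1.52 and 0.957 CPM in Sham and 5.40, 0.0585 and 0.115 CPM after injury. Only injured replicate 1 stood above all Sham libraries for *Ccl19*, and replicate 3 had no *Ccl21a* at all. The call of *Ccl21a* (5.31 ± 1.70; adjusted p = 0.0226) was lost without injured replicate 1 (1.51, adjusted p = 0.280). It was also lost without Sham replicate 1 (adjusted p = 0.0770), 2 (adjusted p = 0.0646) or 3 (adjusted p = 0.0663). *Ccl21c* and *Ccl21d*, near-identical copies listed with the same values in every library, had 12.7, 0.410 and 0 CPM after injury, so the 3 genes may share reads. Of 6 lymphatic endothelial markers, *Ccl21a* included, 2 were called higher and 1 lower, where 22.1% and 17.5% of all genes were. They summed to 918, 783 and 889 CPM in Sham and 855, 609 and 649 CPM after injury. The paper saw no lymphatic vessels in Sham iris, so this sum does not measure lymphatic content. Fibroblast markers reached 12438 CPM in injured replicate 1 against 6024 and 8316 CPM in replicates 2 and 3. The part of these cell types in the *Ccl21a* value was not tested.

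The genes of the atypical receptors rose, apart from *Ackr3*. *Ackr1*, a receptor of venules that carries chemokines across the vessel wall, had 0.720, 0.621 and 0.281 CPM in Sham and 26.7, 4.86 and 5.11 CPM after injury (4.48 ± 0.77; adjusted p = 8.31e-04), and remained called without injured replicate 1 (3.18). *Ackr2*, which scavenges inflammatory CC chemokines, had 0.498, 0.452 and 0.788 CPM in Sham and 5.46, 0.995 and 2.07 CPM after injury (2.28 ± 0.60; adjusted p = 0.00946). Both were highest in the library in which *Ccl21a* was high, and *Ackr2* had a log2 fold change of 1.39 without it. *Ackr4*, a scavenger of CCL19 and CCL21, had 10.2, 7.06 and 11.5 CPM in Sham and 16.8, 13.5 and 36.2 CPM after injury (1.21 ± 0.36; adjusted p = 0.0169). It was not called without Sham replicate 2 (adjusted p = 0.0625) and had a log2 fold change of 0.66 without injured replicate 3. *Ccrl2*, which binds chemerin, rose evenly from 4.65, 4.74 and 4.05 CPM to 32.8, 25.7 and 24.7 CPM (2.63 ± 0.15; adjusted p = 9.31e-07).

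**Figure D3:**
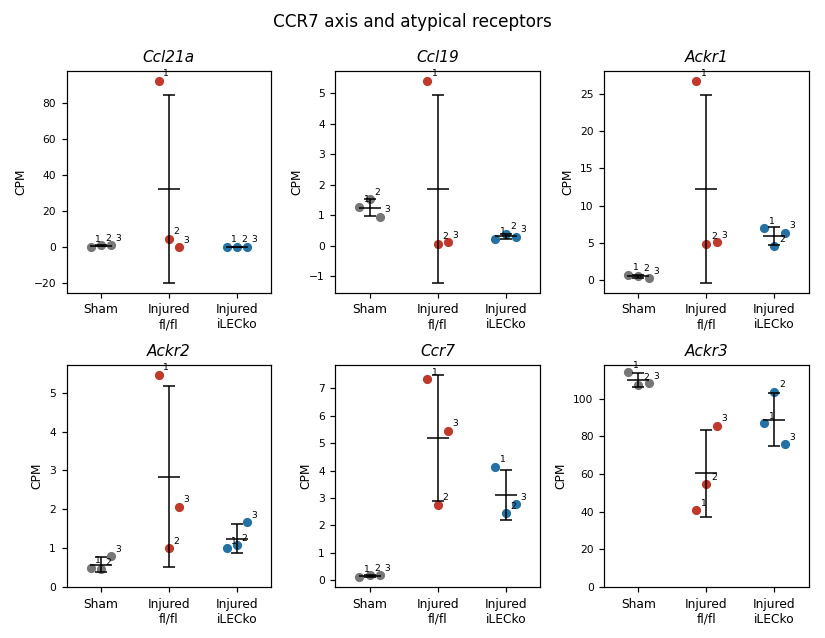
CPM in each library for *Ccl21a*, *Ccl19*, *Ackr1*, *Ackr2*, *Ccr7* and *Ackr3*, with the replicate number beside each point and the mean ± SD of 3 libraries as bars. Injured *VEGFR3fl/fl* replicate 1 is the highest point for the first 4 genes, at 92.3 CPM for *Ccl21a*, while *Ackr3* has its highest points in Sham.

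Several remaining rises were carried by single libraries. *Ccl11*, the eosinophil attractant eotaxin, had 3.27, 2.94 and 2.93 CPM in Sham and 9.58, 40.2 and 10.6 CPM after injury (2.72 ± 0.91; adjusted p = 0.0274). Its receptor gene *Ccr3* had 1 count in Sham and 0, 102 and 9 counts after injury, a ratio of summed counts of 117 (95% counting interval 20.5 to 4644). *Pf4*, a ligand of platelets that macrophages also express, had 11.3, 13.7 and 12.7 CPM in Sham and 17.4, 108 and 30.4 CPM after injury (2.05 ± 0.70; adjusted p = 0.0304). Injured replicate 2 was highest for all 3 genes, and none of them was called without it (adjusted p = 0.120, 0.101 and 0.161), with log2 fold changes of 1.73 for *Ccl11* and 0.93 for *Pf4*. Nor were they called without Sham replicate 1 (adjusted p = 0.0720, 0.0611 and 0.0875), 2 (0.0752, 0.0592 and 0.0715) or 3 (0.0765, 0.0606 and 0.0795). Platelet markers summed to 8.78 to 13.8 CPM in all 9 libraries. *Xcr1*, the receptor of cross-presenting dendritic cells, had 0.0554, 0.226 and 0.113 CPM in Sham and 1.52, 0.527 and 0.631 CPM after injury (2.70 ± 0.86; adjusted p = 0.0218), and was not called without Sham replicate 1 (adjusted p = 0.0785), Sham replicate 3 (0.0703) or injured replicate 1 (0.0743). Its ligand gene *Xcl1* had no count in Sham and 23 after injury, and was not tested.

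*Cxcl14*, an epithelial and stromal chemokine with no agreed receptor, rose from 10.3, 10.8 and 10.1 CPM to 88.3, 70.6 and 114 CPM (3.13 ± 0.16; adjusted p = 6.26e-07). *Cxcl13*, the B cell attractant, had 2 counts in Sham and 57 after injury, a ratio of 29.9 (95% counting interval 7.91 to 253), and its receptor gene *Cxcr5* had 3 and 16. *Ccr9*, a receptor of gut-homing lymphocytes and plasmacytoid dendritic cells, had 2, 3 and 2 counts in Sham and 19, 12 and 19 counts after injury and rose by 2.84 ± 0.46 on the log2 scale, while its ligand gene *Ccl25* had 1.99, 1.75 and 1.75 CPM in Sham and 1.21, 1.52 and 1.26 CPM after injury and was not called. *Ccr6*, with no count in Sham and 33 after injury, was not tested, and *Ccl20*, its ligand gene, had no count in either of these groups.

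The epithelial CCR10 axis went down or was not called. *Ccl27b* fell from 11.2, 8.24 and 10.8 CPM to 4.85, 5.44 and 5.11 CPM (-0.97 ± 0.16; adjusted p = 6.68e-04). *Ccr10*, the receptor, fell from 1.22, 1.02 and 0.788 CPM to 0.364, 0.410 and 0.287 CPM (-1.49 ± 0.45; adjusted p = 0.018), a call lost without Sham replicate 1 (adjusted p = 0.0655) or injured replicate 3 (0.0604). *Ccl27a*, a near-identical copy of *Ccl27b* whose reads could be split between them, had 8.58, 8.92 and 7.66 CPM in Sham and 7.58, 6.38 and 5.97 CPM after injury, groups that did not overlap but were not called (adjusted p = 0.139). *Ccl28*, the other ligand, had 16, 11 and 16 counts in Sham and 9, 14 and 27 counts after injury, and these overlapped.

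The contrast between the injured groups compares libraries by their label. As given above, *Flt4* was not lower with the label, and sex and label are nearly confounded. The contrast therefore does not isolate *VEGFR3* depletion in LECs. Between these groups, 0 of the 50 genes were called higher in the labelled *VEGFR3iLECko* libraries (0.573% of all genes were). In the other direction 2 fell, *Cxcr3* and *Cx3cr1* (0.466% of all genes were called lower). DESeq2 on the same libraries called 3 higher and 4 lower. Its share over all genes is not given here, so these counts have no background to be read against. At an unadjusted p under 0.05 in the edgeR test, 7 (14%) were higher and 11 (22%) lower, where 12% and 12.5% of all genes were. The median log2 fold change was -0.21, against -0.01 over all genes. The labelled *VEGFR3iLECko* libraries lay entirely above injured *VEGFR3fl/fl* for *Cxcl1*, *Cxcl2*, *Cxcl3*, *Cxcl5* and *Cxcl14*, or 5 of 50 genes, where 12.4% of all genes did. They lay entirely below for *Cxcr3*, *Cx3cr1*, *Cxcr4*, *Ccl3*, *Ccl5*, *Ccl12*, *Ccl27a* and *Cxcl16*, or 8 of 50, where 14.3% of all genes did. Both shares are near the background.

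Of the 2 receptors called lower, *Cxcr3* (chrX:101731535-101734147, mm10) had 1.69, 1.98 and 1.55 CPM in the labelled *VEGFR3iLECko* libraries against 4.49, 3.69 and 4.08 CPM in injured *VEGFR3fl/fl*, a decrease of 2.34-fold (-1.22 ± 0.21 on the log2 scale; adjusted p = 0.0386). *Cx3cr1* (chr9:120048683-120068296) had 23.0, 16.2 and 18.7 CPM against 47.4, 32.5 and 31.3 CPM, a decrease of 1.92-fold (-0.94 ± 0.18; adjusted p = 0.0417). For *Cxcr3* the libraries with the label lay between Sham and injured *VEGFR3fl/fl*, and for *Cx3cr1* they spanned the Sham values of 21.5, 19.8 and 20.9 CPM. *Cxcr4* was lower in every library (100.04, 95.5 and 108 CPM against 126, 142 and 147 CPM) with an adjusted p of 0.0384, but its log2 fold change of -0.45 ± 0.08 was under the threshold.

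Neither call held throughout. In the fit of only the 6 injured libraries the adjusted p was 0.110 for *Cxcr3* and 0.128 for *Cx3cr1*, and with Y-linked expression as a covariate it was 0.276 and 0.412. Both were also lost without Sham replicate 1 (adjusted p = 0.0726 for *Cxcr3* and 0.0820 for *Cx3cr1*), 2 (0.0573 and 0.0633) or 3 (0.0755 and 0.0771), although the Sham libraries enter this contrast only through the shared estimate of spread. They were lost too without *VEGFR3iLECko* replicate 1 (0.0797 and 0.0607), 2 (0.130 and 0.156) or 3 (0.0965 and 0.104). *Cxcr3* alone was lost without injured *VEGFR3fl/fl* replicate 1 (0.0671) or 3 (0.0508). Over all these fits the log2 fold change of *Cxcr3* stayed between -1.33 and -1.15, and *Cx3cr1* had -0.70 with the covariate. T cell markers summed to 51.9, 40.4 and 58.7 CPM in injured *VEGFR3fl/fl* and 43.6, 35.6 and 24.6 CPM in the labelled *VEGFR3iLECko* libraries, with 0 of 8 called. The macrophage markers summed to 2078, 2139.8 and 2068 CPM and 1467, 1384 and 1321 CPM, with 3 of 8 called lower. The part of these cell types and of sex in the 2 receptor values was not tested.

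The ligands of the CXCR3 axis varied more. *Cxcl10* had 5.66, 1.70 and 1.84 CPM in the labelled *VEGFR3iLECko* libraries against 13.5, 36.9 and 3.79 CPM, a log2 fold change of -2.56 ± 0.76 that was not called (adjusted p = 0.1). DESeq2 called it lower (adjusted p = 0.00563), as did edgeR without injured *VEGFR3fl/fl* replicate 3 (-3.04, adjusted p = 0.0400), the injured library with the least *Cxcl10*. The value shrank to -1.49 (adjusted p = 0.184) without replicate 2, the library with the most, and to -0.44 (adjusted p = 0.915) with the Y-linked covariate. The groups of this gene overlapped. *Cxcl9* had 3.56, 1.25 and 0.748 CPM against 6.01, 2.16 and 1.66 CPM, and its groups overlapped too. *Ccl5*, a T cell and monocyte attractant, had 2.80, 2.21 and 1.67 CPM against 9.04, 2.81 and 4.13 CPM (-1.25 ± 0.44; adjusted p = 0.137).

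**Figure D4:**
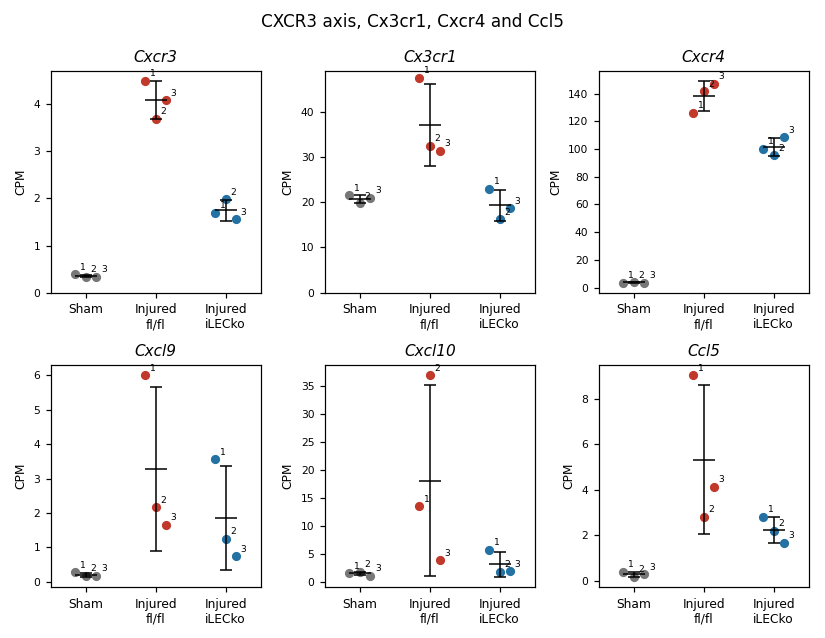
CPM in each library for *Cxcr3*, *Cx3cr1*, *Cxcr4*, *Cxcl9*, *Cxcl10* and *Ccl5*, with the replicate number beside each point and the mean ± SD of 3 libraries as bars. For the 3 receptors and *Ccl5* all libraries labelled *VEGFR3iLECko* lie below all injured *VEGFR3fl/fl* libraries, whereas those of *Cxcl9* and *Cxcl10* overlap.

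In the CXCR2 axis the differences between the injured groups pointed up without being called. *Cxcl5* had 115, 131 and 483 CPM in the labelled *VEGFR3iLECko* libraries against 23.8, 63.3 and 93.4 CPM (2.01 ± 0.61; adjusted p = 0.102). *Cxcl2* had 25.6, 31.6 and 35.8 CPM against 2.85, 13.6 and 10.2 CPM (1.80 ± 0.42; adjusted p = 0.0634). *Cxcl1* had 36.7, 32.8 and 68.4 CPM against 17.4, 9.71 and 14.98 CPM (1.71 ± 0.46; adjusted p = 0.0804). These 3 ligands, and *Cxcl3* with 8.12, 11.6 and 15.9 CPM against 0.121, 5.73 and 3.67 CPM (1.89 ± 0.78; adjusted p = 0.181), were separated between the groups in all libraries, with replicate 3 of the labelled *VEGFR3iLECko* group highest for each. *Cxcl2* passed in DESeq2 (adjusted p = 0.00170), without injured *VEGFR3fl/fl* replicate 1 (1.39, adjusted p = 0.0226) and without replicate 2 (2.24, adjusted p = 0.0441), and *Cxcl5* passed in DESeq2 (adjusted p = 0.0498). Without *VEGFR3iLECko* replicate 3 the value of *Cxcl5* was 1.03 (adjusted p = 0.270), and with the Y-linked covariate those of *Cxcl1*, *Cxcl2*, *Cxcl3* and *Cxcl5* were 1.77, 1.58, 1.62 and 1.36 (adjusted p from 0.511 to 0.763). *Cxcl1* and *Cxcl3* passed in neither tool. Their receptor gene *Cxcr2* had 45.3, 70.3 and 106 CPM against 9.77, 49.4 and 48.8 CPM, and these overlapped (1.04 ± 0.51; adjusted p = 0.24). The summed neutrophil markers were 358, 475 and 1224 CPM against 157, 411 and 493 CPM, again highest in replicate 3 of the labelled *VEGFR3iLECko* group, and their part in these values was not tested. Of these ligands, *Cxcl1*, *Cxcl2* and *Cxcl3* are those with the shared 11 bases shown above, whose part was not tested. No promoter window was read for *Cxcl5*.

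**Figure D5:**
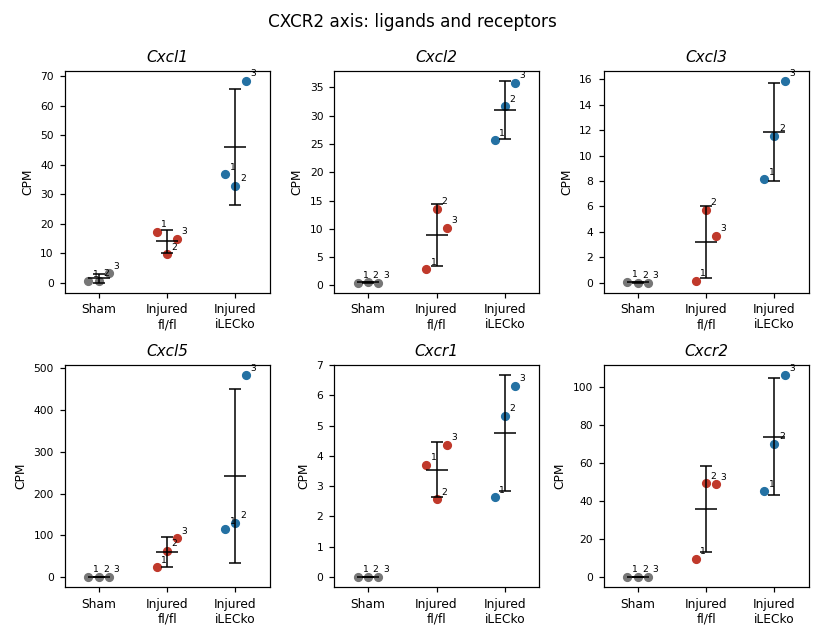
CPM in each library for the CXCR2 ligand genes *Cxcl1*, *Cxcl2*, *Cxcl3* and *Cxcl5* and the receptor genes *Cxcr1* and *Cxcr2*, with the replicate number beside each point and the mean ± SD of 3 libraries as bars. The labelled *VEGFR3iLECko* libraries lie above the injured *VEGFR3fl/fl* libraries for the 4 ligands and overlap with them for the receptors.

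Among other genes, *Cxcl14* had 133, 139 and 139 CPM in the labelled *VEGFR3iLECko* libraries against 88.3, 70.6 and 114 CPM (0.59 ± 0.14; adjusted p = 0.0684). It was called higher by DESeq2 (adjusted p = 0.00670) and without injured *VEGFR3fl/fl* replicate 3 (0.78, adjusted p = 0.0262), and had a value of 0.28 (adjusted p = 0.582) with the Y-linked covariate. Without that library *Ackr3*, with 87.0, 104 and 75.9 CPM against 40.8, 54.6 and 85.5 CPM (0.56 ± 0.23; adjusted p = 0.182), was also called higher (0.90, adjusted p = 0.0357). *Ccl21a* had 2, 3 and 6 counts, a log2 fold change of -7.21 ± 2.02 against injured *VEGFR3fl/fl* (adjusted p = 0.0877) that rested on replicate 1 of the latter. It was called lower by DESeq2 (adjusted p = 0.00365) and without injured *VEGFR3fl/fl* replicate 3 (-7.80, adjusted p = 0.0330), and its sign was reversed with the Y-linked covariate (2.03). Among monocyte and T cell genes, *Ccr2* (-0.40 ± 0.26), *Cxcr6* (-0.39 ± 0.27), *Ccr7* (-0.73 ± 0.36) and *Ccl8* (-0.78 ± 0.34) had negative values that were not called (adjusted p from 0.200 to 0.376). Other monocyte and myeloid genes, *Ccl7* (0.47 ± 0.45), *Ccr1* (0.44 ± 0.33) and *Ccl6* (0.20 ± 0.48), had positive values. They were not called in the edgeR test either (adjusted p from 0.427 to 0.826). Of the 4 genes of the CCR2 axis, 2 were positive and 2 negative. *Ccl3* (-0.61 ± 0.23), *Ccl12* (-0.59 ± 0.26), *Cxcl16* (-0.42 ± 0.13) and *Ccl27a* (-0.51 ± 0.19) were separated without being called (adjusted p from 0.111 to 0.200). *Ccl2* (1.18 ± 0.49; adjusted p = 0.181) and *Ccl11* (1.55 ± 0.79; adjusted p = 0.25) had positive values, with replicate 3 of the labelled *VEGFR3iLECko* group far above the others at 68.0 CPM and 135 CPM.

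Against Sham, the labelled *VEGFR3iLECko* libraries had 35 genes called higher, where 19.7% of all genes were, and 2 called lower, *Ccl27a* and *Ccl27b*, where 15% of all genes were. This comparison shares the Sham libraries with the one above, so the calls are given side by side. All 4 Y-linked genes were called lower here, with no overlap of the libraries, so that sex and group cannot be told apart between these groups. With Y-linked expression as a covariate, *Ackr4*, *Ccl12*, *Ccl17*, *Ccl22*, *Ccl27a* and *Pf4* lost their calls (adjusted p from 0.0811 to 0.852), and *Ackr3*, *Cx3cl1* and *Cxcl10* gained one. The slope of that covariate rests largely on injured *VEGFR3fl/fl* replicate 3, so these shifts do not separate sex from group. Of the 44 genes called after injury in *VEGFR3fl/fl*, 35 were called the same way here, and *Ccl27a* and *Ppbp* were called only here. The other 9, *Ackr2*, *Ackr3*, *Ccl21a*, *Ccr10*, *Ccr3*, *Cx3cr1*, *Cxcl10*, *Cxcl12* and *Xcr1*, were not, and of these only *Cx3cr1* was called in the direct test between the injured groups. The log2 fold change of *Cx3cr1* against Sham was -0.10 ± 0.18 (adjusted p = 0.647) and that of *Cxcl10* 1.09 ± 0.81 (adjusted p = 0.287), values that do not show equality with Sham. For *Cxcr2* it was 9.07 ± 0.95, for *Cxcl5* 8.48 ± 0.93 and for *Cxcr3* 2.27 ± 0.25. The calls of *Pf4* and *Ppbp* were lost without *VEGFR3iLECko* replicate 3 (1.33, adjusted p = 0.128, and 1.495, adjusted p = 0.0957) and without each Sham library (adjusted p up to 0.0841 and 0.0658). *Ackr4* was lost without *VEGFR3iLECko* replicate 2 (adjusted p = 0.0808) and without Sham replicates 1 and 2 (0.0564 and 0.0852), and *Ccl11* fell from 4.28 to 2.80 without *VEGFR3iLECko* replicate 3. Calls were gained by *Ccl19* without injured *VEGFR3fl/fl* replicate 1 (adjusted p = 0.00223), by *Ccr10* and *Xcr1* without *VEGFR3iLECko* replicate 2 (0.0190 and 0.0369), and by *Ccr3* without any one injured *VEGFR3fl/fl* library (0.00641 to 0.0470).

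Downstream of the receptors, a list of 51 genes for G protein signaling, kinases, Rac and Rap GTPases and their regulators was tested in full. After injury 35 rose and 1, the G protein gene *Gnai1* (-1.17 ± 0.11), fell, with a median log2 fold change of 1.65, where 22.1% and 17.5% of all genes were called and the median over all genes was 0.01. Among the large rises were those of the Src-family kinase gene *Fgr* (5.69 ± 0.26) and of *Pik3r5* (5.54 ± 0.17), a regulatory subunit of the G protein-activated PI3 kinase. Between the injured groups 0 were called higher, by DESeq2 also 0, and 2 fell, the integrin activator gene *Fermt3* (-0.63 ± 0.09; adjusted p = 0.0263) and the G protein regulator gene *Rgs10* (-0.83 ± 0.15; adjusted p = 0.0417), where 0.466% of all genes were called lower. For 20 of the 51 the labelled *VEGFR3iLECko* libraries lay entirely below injured *VEGFR3fl/fl* (14.3% of all genes did), and for 2 entirely above (12.4% of all genes). Among them *Vav1* (-0.47 ± 0.07), *Dock2* (-0.52 ± 0.08) and *Arrb2* (-0.47 ± 0.08) passed the adjusted p but not the fold threshold. Both calls were lost in the fit of the 6 injured libraries, with the Y-linked covariate, without Sham replicate 1 or 3 and without *VEGFR3iLECko* replicate 2, and 1 of them was lost without *VEGFR3iLECko* replicate 1 or 3. Without injured *VEGFR3fl/fl* replicate 2, 4 genes of the list were called lower, and 1 was called higher without its replicate 3. Sums of macrophage, T cell and neutrophil markers are given above, and the part of these cells in the values of this list was not tested.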

How the data were processed

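Bulk RNA-Seq was performed on mouse iris in 3 groups of 3 libraries, each from 3 pooled irises, with single-end reads of 50 bases. The authors aligned filtered reads with HISAT2 2.0.4 and Bowtie2 2.2.5 and deposited unnormalized estimated counts for each gene. The submitters' processing notes name the mm10 build. The annotation and the program that counted reads are not given in the sources used here. About 10% of each library's values had decimals, and reads shared by near-identical or overlapping genes may have been split. Groups followed titles and descriptions, since the genotype tag of replicates 2 and 3 of the *VEGFR3iLECko* group names another VEGFR number.

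The genes, their axes and the other lists were chosen with earlier results of these data known. Estimated counts were rounded in R 4.3.3. The filterByExpr function (edgeR 4.0.16) left 15010 of 18349 genes after removal of low counts, and libraries were normalized by TMM (factors 0.90 to 1.09). A single model of the 9 libraries had a term for group, and 3 contrasts were put to the quasi-likelihood F test of edgeR, with p-values adjusted across all tested genes by the Benjamini-Hochberg method. The study's methods used DESeq2, kept here as an alternative (version 1.42.0). Genes were called at an adjusted p under 0.05 and a change over 1.5-fold. Standard errors come from the F statistic. Approximate TPM used the longest GENCODE M21 transcript. Against a group with no counts, folds are bounds at 3 counts per library. Against 1 to 3 counts, ratios carry 95% intervals. Both cover counting error only.

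Every gene was given by name or in a count, and 1 is not reported here by name. Per-library values were printed for genes called between the injured groups, for the 10 higher and 5 lower genes with the largest separated changes after injury, for the 10 highest levels per length, and for the receptor and main ligands of most axes, or as summed counts where counts were low. *Ccl11*, *Ccr3*, *Cxcl14*, *Pf4* and the atypical receptors were named as parts of their axes. In simulated counts for the comparison of injured with Sham libraries on 15010 genes, 82.5% of 200 genes changed 3-fold were recovered. Alternatives covered the normalization, the filter, the tool, the libraries in the fit, the fold threshold, a replicate block, a covariate for Y-linked genes and leaving out each library. Replicates differed by more than sampling noise. Promoter windows came from RefSeq on GRCm38.p6. Separate cultures or days behind the replicates are not stated, so p-values measure the spread between pools.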

Additional observations from a re-analysis of the deposited data

How the results depend on the processing

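After injury, the counts of genes called higher ranged from 37 to 46 around 41 and those called lower from 2 to 4 around 3. Of the 44 calls, 36 held in every alternative that tested the gene. Between the injured groups, none of the 2 calls did. DESeq2 gave 3 higher and 4 lower genes in place of 0 and 2, with no share over all genes beside them. Leaving out libraries gave 0 to 2 higher and 0 to 3 lower genes. The fit of only the 6 libraries compared and the Y-linked covariate each gave 0 lower. Same-numbered libraries correlated from -0.387 to 0.131 in their deviations from the group means. Libraries of different numbers were not compared, so whether the numbers mark a shared batch was not settled. The paper states that 3 sequencing experiments were conducted, and does not say whether the numbers mark them. With the replicate block, 41 became 40 after injury and the 2 genes lower between the injured groups became 0, with an adjusted p of 0.0859 for *Cxcr3* and 0.0510 for *Cx3cr1*. Against Sham, the labelled *VEGFR3iLECko* libraries had 32 to 38 genes higher and 2 to 3 lower. Of the 37 calls, 30 held in every alternative that tested the gene. Of the downstream signaling genes, 1 was lower after injury, against 3 with no fold threshold, 2 with upper quartile and 4 with library size only, and 1 to 2 when libraries were left out. Between the injured groups their 2 lower genes became 5 with no fold threshold, 1 with library size only, and 0 in the fit of 6 libraries, with the replicate block and with the Y-linked covariate, and ranged from 0 to 4, with 0 to 1 higher, when libraries were left out. Scaling by library size alone moved the share of higher calls after injury to 44.1% from 55.8% over all genes. As stated above, the Y-linked covariate leans on injured *VEGFR3fl/fl* replicate 3. It reversed the sign of 1 gene after injury, of 9 between the injured groups and of 4 against Sham. *Ccl21a* between the injured groups (2.03) and *Cx3cr1* against Sham (0.21) were among them, and the latter was reversed also without *VEGFR3iLECko* replicate 2, where values without 1 library ranged from -0.25 to 0.0090. The causes were not tested. Counts of 0 to 3 in Sham limit what can be said of *Cxcr1*, *Cxcr6*, *Cxcl3*, *Cxcl13* and *Ccr3*.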

Other observations

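Genes that handle chemokines or act beside them, a list of 16 that was chosen with earlier results known, rose in 10 cases after injury and fell in 1, where 22.1% and 17.5% of all genes tested were called higher and lower. *Dpp4*, a protease that trims the amino terminus of several chemokines, fell from 139.8, 136 and 141 CPM to 30.9, 27.6 and 32.6 CPM (-2.19 ± 0.15; adjusted p = 3.08e-06 in the quasi-likelihood F test of edgeR, Benjamini-Hochberg method). Its injured libraries all lay below Sham, and the labelled *VEGFR3iLECko* libraries had 40.8, 37.8 and 26.0 CPM. *Cd74*, the MIF receptor and invariant chain of antigen presentation, went from 66.0, 77.1 and 90.9 CPM to 1274, 491 and 756 CPM (3.43 ± 0.37; adjusted p = 4.95e-05), whereas *Mif* had 209.6, 255 and 201 CPM in Sham and 134, 182 and 164 CPM after injury and was under the fold threshold. The chemerin receptor gene *Cmklr1* rose by 2.96 ± 0.12, while *Rarres2*, the gene for chemerin, had a value of -0.52 ± 0.19 that was not called. The oxysterol receptor gene *Gpr183*, which positions B cells and dendritic cells, rose by 1.69 ± 0.24, and *Ch25h*, an enzyme that makes precursors of its ligand, by 0.73 ± 0.20.

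Between the injured groups 0 of the 16 genes were called in the same edgeR test. *Gpr183* had 3.50, 2.77 and 3.39 CPM in the labelled *VEGFR3iLECko* libraries against 8.74, 5.85 and 5.40 CPM in injured *VEGFR3fl/fl*, groups that did not overlap, with a log2 fold change of -1.04 ± 0.23 (adjusted p = 0.0591). *Ch25h* was separated in the opposite direction, at 14.5, 21.5 and 14.6 CPM against 9.77, 10.6 and 12.1 CPM (0.64 ± 0.19; adjusted p = 0.104).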
